A study of Mus musculus with 4 samples.

Results

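Myeloid cells read glycans with several families of proteins, and 10 genes of these families were followed here in alveolar macrophages of the mouse, which patrol the surface of the lung's air sacs. They are 6 C-type lectin receptors (Clec7a, Clec4n, Clec4d, Clec4e, Clec12a and Mrc1), the sialic acid binding lectins Siglecf and Siglec1, and the chitinase-like proteins Chil3 and Chi3l1. They were chosen by gene symbol, the older names Siglec5 and Chi3l3 included, from 11827 genes with a tag in the deposited tables. The tables list 41 tags for the 10 genes, and 33 of these tags had counts. The assay was SAGE (serial analysis of gene expression), in which a short tag beside a cut site of the enzyme NlaIII stands for a transcript. Each of the 4 libraries came from alveolar macrophages of wild-type BALB/c mice. For 2 libraries the mice were untreated. For the other 2, cells were taken 21 days after BNL cells, which are mouse hepatocellular carcinoma cells, had been injected intravenously to give lung metastasis. No sham injection of the untreated mice is mentioned, and so the injection itself and the metastasis cannot be told apart. The labels give no age and leave unsaid whether a group's libraries are from different mice or pools, and each p-value therefore reflects the scatter among these 4 samples alone, some or all of which may be technical.

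C-type lectin receptors bind sugars and lipids of microbes and of dying cells. Clec7a (dectin-1) binds fungal beta-glucans and signals through a motif in its own tail. Clec4n (dectin-2), Clec4d and Clec4e (Mincle) lack such a motif and signal through a partner chain. Siglecs bind sialic acids of host glycans, and Siglecf is a standard surface marker of alveolar macrophages and of eosinophils. Chil3 (Ym1) and Chi3l1 are secreted relatives of chitinases without enzyme activity, and Chil3 is abundant in the airways.

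The main tags are shown because most counts of the 6 genes with counts in every library are counts of them. Each is printed with its cut site CATG in capitals, and the coordinates (GRCm38) come from a match to GENCODE M21 transcripts.
Clec7a, last site: CATGatcattattaagatggccatc
Clec4n, last site: CATGaagagcaagccagggagcatc
Mrc1, last site: CATGtagaataataaagctactgag
Siglecf, last site: CATGaggagtgtcaaggagaaagtg
Siglecf, exon 2: CATGgggaaggaaaatagtcataat
Siglec1, exon 16: CATGgtcgtgattcagtgcaccgtg
Chil3, second to last site: CATGaactttcctaaattgaatccc
Chil3, last site: CATGcttgtttcttgctctcacaat
These sites lie in the 3' UTR for Clec7a (exon 6 of 6, chr6:129462159-129462183, minus strand), Clec4n (exon 6 of 6, chr6:123246890-123246914, plus strand) and Mrc1 (exon 30 of 30, chr2:14331697-14331721, plus strand). The last-site tag of Siglecf is in the 3' UTR (exon 9 of 9, chr7:43359036-43359060, plus strand), while its other tag is in the coding sequence of exon 2 (chr7:43351870-43351894). The main tag of Siglec1 is in the coding sequence of exon 16 of 21 (chr2:131073557-131073581, minus strand), with 6 further NlaIII sites downstream. Both tags of Chil3 are in the 3' UTR of exon 11 of 11 on the minus strand, at chr3:106147715-106147739 and chr3:106147573-106147597. All tags of 9 of the genes matched that gene alone. Of the 7 tags of Chil3, 4 matched it alone, and these held 97.1% of its counts.

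Library totals ran from 1630776 to 2198563 tags, and the 10 genes together took 0.898% to 1.40% of them. No tag has a count of 1, so a listed 0 can hide tags read once. Markers of the labelled cell were present: of 22 alveolar macrophage markers 20 had counts, although Fabp4 is listed at 0 and Marco had 2 counts in 1 library. CPM are counts per 1000000 tags of a TMM-scaled library. The listed markers of T, NK, B and mast cells are at 0 in every library. Summed markers of interstitial and monocyte-derived macrophages were at 194.3 and 471.9 CPM untreated and 2491 and 4089 CPM on day 21. Of the untreated sums Cd68 alone made up 140.4 and 371.7 CPM, and of the day 21 sums Apoe alone 1733 and 2716 CPM. On day 21, 6 of 8 tested (Apoe, C1qb, C1qc, Ms4a7, Pf4 and Trem2) were higher by edgeR, against 0.668% of all tested genes. Cd163, Folr2, Lyve1 and Tmem119 are listed at 0, and Cx3cr1 has no listed tag. Summed monocyte markers were at 12.8 and 40.9 against 41.1 and 63.4 CPM, dendritic cell markers at 7.36 and 24.1 against 11.99 and 36.3 CPM, lung epithelial markers at 53.5 and 30.3 against 19.4 and 4.99 CPM, and stromal markers at 0 and 0 against 2.28 and 2.85 CPM. Of the hepatocyte and BNL markers only Trf was abundant, with 64978 to 84369 counts in untreated libraries and 57497 and 71494 on day 21, while Dlk1 and H19 are listed at 0. The part of these cells in the results was not tested. In a bulk sample, fewer cells of a type and less RNA per cell cannot be told apart. Tags at the last NlaIII site of any transcript of their gene took 78.1% and 72.3% of the counts untreated and 84.1% and 77.4% on day 21. The part of this share in the results was not tested. For the 10 genes, the last site is that of the longest coding transcript alone.

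The 10 genes spanned the range of detection. Clec4n held 88.9% of their 89322 counts and Chil3 10.4%. Tag counts do not scale with transcript length, so levels in CPM were not divided by it. In order of their untreated mean, Clec4n was at 9781 ± 2160 CPM (SD, n = 2), Chil3 at 761.8 ± 611.7, Clec7a at 38.0 ± 16.2, Siglecf at 32.3 ± 6.88, Mrc1 at 11.9 ± 5.09 and Siglec1 at 6.83 ± 8.27. Clec7a and Siglecf did not differ beyond their spread, nor did Mrc1 and Siglec1. None of the listed Siglec1 tags is at the last site, so its CPM are levels of upstream tags and not of the transcript. On day 21 the order was Clec4n (10998 ± 953.1 CPM), Chil3 (1912 ± 1223), Siglecf (20.5 ± 0.824), Siglec1 (19.03 ± 16.4), Clec7a (7.20 ± 2.92) and Mrc1 (6.99 ± 0.196). The last 4 of these did not differ from their next neighbour beyond the spread. The listed tags of the other 4 genes were at or near 0 in every library, and too low to be tested.

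**Figure D1:**
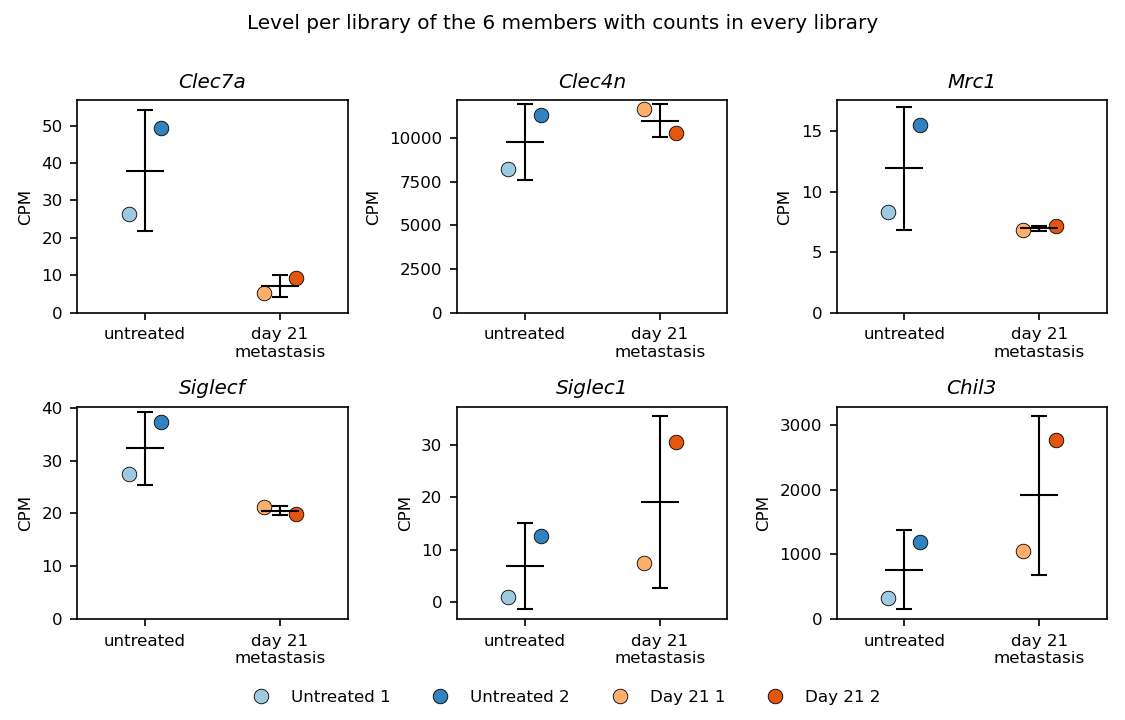
Level in CPM (vertical axis, linear) of the 6 genes with counts in every library, in 2 untreated and 2 day 21 metastasis libraries. Points are libraries, and bars are means ± SD (n = 2). The day 21 points lie below both untreated points for Clec7a, Mrc1 and Siglecf, and the groups overlap for Clec4n, Siglec1 and Chil3.

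No member passed the test between day 21 and untreated macrophages. Of the 6 tested, 0 had an adjusted p under 0.05 in edgeR's quasi-likelihood test or in DESeq2, and 2 (Clec7a and Chil3) had an unadjusted p under 0.05 in edgeR. Over all 2993 genes tested, 0.735% passed the adjusted threshold (0.668% higher and 0.0668% lower on day 21) and 5.68% the unadjusted one (3.54% higher, as Chil3, and 2.14% lower, as Clec7a). The log2 change (day 21 minus untreated) was above 0 for 3 members and below 0 for the other 3, with a median of -0.24 against -0.07 for all genes tested. Of the 6, 3 (Clec7a, Mrc1 and Siglecf) had both day 21 libraries below both untreated ones, which 16% of all tested genes had, and none had both above, against 15.2%.

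Of the 3 tested C-type lectins among the 10 genes, Clec7a had the lowest p and the largest fitted difference. It had 54 and 121 counts in untreated replicates 1 and 2 and 9 and 13 on day 21. In CPM these were 26.5 and 49.5 against 5.14 and 9.26. Both day 21 libraries were thus low, and the lower untreated library stood well above the higher day 21 one. The log2 change was -2.40 ± 0.77 (SE), a level 5.29-fold higher in untreated libraries, and it did not pass (edgeR unadjusted p = 0.00460, adjusted p = 0.255). With 1 library left out it ran from -2.84 to -1.86. The pooled counts, 175 against 22, gave a ratio of 5.60 with an exact 95% counting interval of 3.58 to 9.16, which leaves out the spread between libraries.

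The counts of Clec7a were spread over 7 tags. The tag at the last site had 51 and 64 counts untreated and 7 and 8 on day 21, so its CPM of 25.03 and 26.2 in untreated libraries were close together and the 3.995 and 5.70 of day 21 lay far below. Its log2 change was -2.42 ± 0.78 (SE) and did not pass over the 3907 tags tested, of which 0.358% did (edgeR adjusted p = 0.515). The 6 tags further upstream had 3 counts in untreated replicate 1 and 57 in untreated replicate 2, against 2 and 5 on day 21. Untreated replicate 2 was the library with counts in all 6 of them. The last-site tag held 94.4% (exact Clopper-Pearson 95% interval 84.6% to 98.8%) of the Clec7a counts in untreated replicate 1 but 52.9% (43.6% to 62.0%) in untreated replicate 2. The higher gene sum of that library thus came mostly from the upstream tags.

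Clec4n was among the most abundant transcripts of these cells, ranked between 9 and 12 in every library. Counts were 16818 and 27655 untreated and 20451 and 14489 on day 21. On the CPM scale this was 8254 and 11308 against 11672 and 10324. The 2 groups overlapped, and the highest library exceeded the lowest only 1.41-fold. The log2 change was 0.17 ± 0.47 (SE; edgeR adjusted p = 0.998), and it was -0.058 with total counts alone and -0.034 without untreated replicate 1, so it has no fixed direction. One tag, at the last site, carried 98.9% to 99.5% of the counts in every library. The 3 upstream tags ranged from 2.94 to 72.4 CPM.

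Its neighbours on chromosome 6 had few or no counts. Clec4d starts 15.1 kb beyond the end of Clec4n (GRCm38.p6) and had 0 and 5 counts untreated and 0 and 4 on day 21. Clec4e, which follows at 6.52 kb, is listed at 0 in all 4 libraries. For its 1 listed tag, a listed 0 allows up to 4.74 counts in a library, or 1.94 to 3.38 CPM. That tag has 8 further NlaIII sites downstream in the longest coding transcript, so the limit holds for the tag and not for that transcript. In another transcript of the gene it is at the last site. This limit is the largest count that leaves each listed tag at 0 or 1 reads with a probability of 5%, and it covers counting error only. Clec12a, an inhibitory receptor gene 96.3 kb from Clec7a, had 2 counts in day 21 replicate 1 and is listed at 0 in the other 3 libraries. A listed 0 allows up to 7.63 counts over its 5 tags. None of these tags is at the last site of the longest coding transcript, though some are at that of another. This limit too is thus one for the tags. Over the 4 libraries Clec4n had 79413 counts and its neighbour Clec4d 9.

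Mrc1, the mannose receptor CD206, takes up mannosylated glycoproteins and is a usual marker of alveolar macrophages. It had 17 and 38 counts untreated and 12 and 10 on day 21. These correspond to 8.34 and 15.5 CPM against 6.85 and 7.13 CPM. Untreated replicate 2 was the high library, and the other untreated library was close to the day 21 pair. The log2 change was -0.77 ± 0.78 (SE; edgeR adjusted p = 0.998), and it ran from -1.14 to -0.23 with 1 library left out. Its last-site tag held 63 of its 77 counts.

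**Figure D2:**
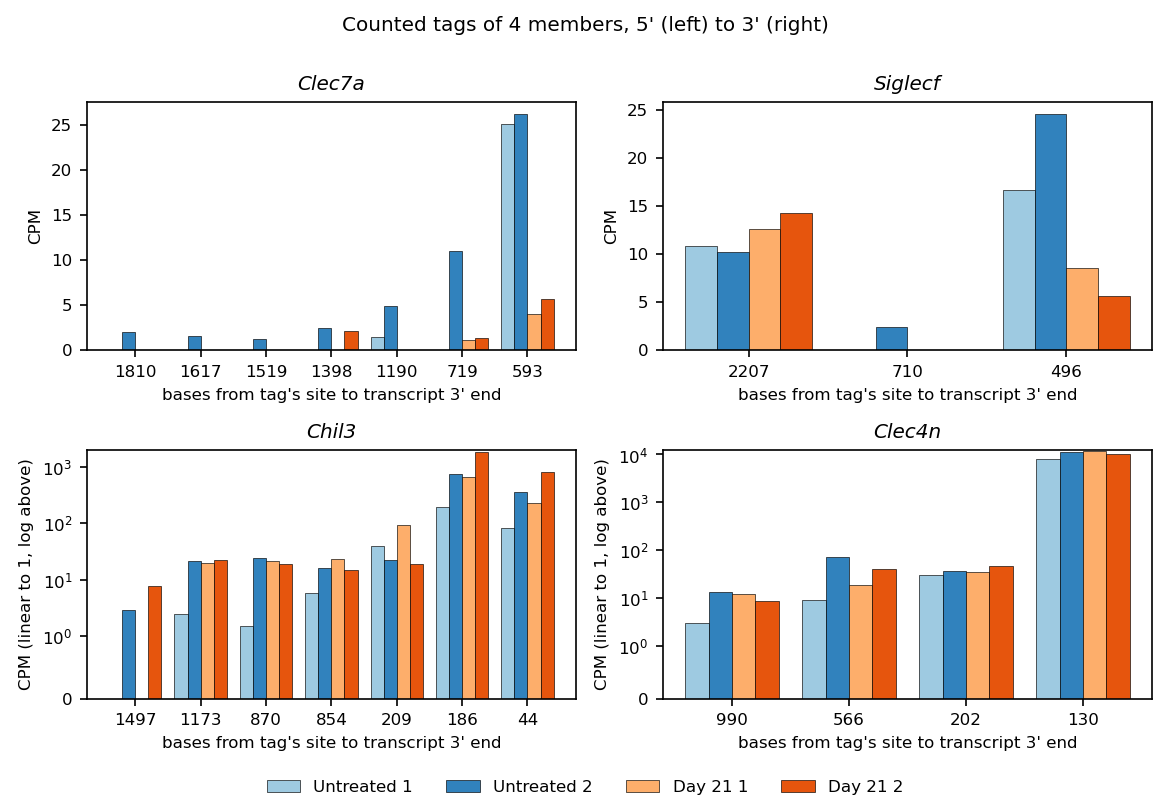
CPM (vertical axes, linear for Clec7a and Siglecf, linear to 1 and logarithmic above for Chil3 and Clec4n) of each counted tag in the 4 libraries, ordered by the distance in bases from the tag's site to the 3' end of the longest coding transcript. Bars are single libraries. The day 21 bars of the last-site tag are low for Clec7a and Siglecf, while the other main tag of Siglecf lies between 10.2 and 14.3 CPM in all libraries.

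Siglecf, the surface marker, had 56 and 91 counts untreated and 37 and 28 on day 21, or 27.5 and 37.2 against 21.1 and 20.0 CPM. The 2 groups did not overlap, but their nearest libraries (27.5 and 21.1 CPM) lay closer to each other than the 2 untreated libraries did. The log2 change was -0.65 ± 0.70 (SE; edgeR adjusted p = 0.998). It was -1.55 when each gene was represented by its main tag only (adjusted p = 0.9996).

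The 2 main tags of Siglecf gave log2 changes of opposite sign. The last-site tag had 34 and 60 counts untreated and 15 and 8 on day 21, which is 16.7 and 24.5 against 8.56 and 5.70 CPM. Its day 21 values were both low, and its log2 change was -1.52 ± 0.76 (SE; edgeR adjusted p = 0.999). The exon 2 tag had 22 and 25 counts untreated and 22 and 20 on day 21, or 10.8 and 10.2 against 12.6 and 14.3 CPM, with a log2 change of 0.32 ± 0.72 (SE; adjusted p = 0.999). Its day 21 values were slightly above the untreated ones. Groups that do not overlap were found in 14.7% of tested tags with day 21 below and in 16.4% with day 21 above. The share of Siglecf counts in the last-site tag was 60.7% (exact 95% interval 46.8% to 73.5%) and 65.9% (55.3% to 75.5%) untreated against 40.5% (24.8% to 57.9%) and 28.6% (13.2% to 48.7%) on day 21. A test of each tag against its whole gene, that tag included, was added after the counts were seen (edgeR diffSpliceDGE). The difference from the gene on the log2 scale was -0.63 for the last-site tag and 0.65 for the exon 2 tag. These are not differences between the 2 tags. Neither passed (diffSpliceDGE adjusted p = 0.9999 for each). The test called 0 of 1987 tags, while its unadjusted p for the last-site tag was 0.282. Eosinophils also carry Siglecf. Of 8 eosinophil markers, 7 are listed and 6 of these (Epx, Prg3, Ccr3, Alox15, Ear6 and Gata1) are at 0 throughout, with Prg2 at 2 and 0 counts untreated and 2 and 6 on day 21. Ear1, with 14 and 75 counts untreated and 13 and 44 on day 21, has a main tag that also matches Ear6, so for that tag these genes cannot be told apart.

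Siglec1 (sialoadhesin, CD169) binds sialylated cells and vesicles and marks subsets of tissue macrophages. It had 2 and 31 counts untreated and 13 and 43 on day 21, and the CPM were 0.982 and 12.7 against 7.42 and 30.6. In each group replicate 2 was the high library, by 12.9-fold untreated and 4.13-fold on day 21, so the groups overlapped. The log2 change was 1.44 ± 0.90 (SE; edgeR adjusted p = 0.998). It rested on single libraries: without untreated replicate 2 it was 4.20 (adjusted p = 0.0165), with 2 untreated counts left and a ratio of 18.1 with an exact counting interval of 4.78 to 153.0. Without day 21 replicate 2 it was 0.13, without untreated replicate 1 it was 0.57, and without day 21 replicate 1 it was 2.20.

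Chil3 (Ym1), a secreted chitinase-like protein of alveolar macrophages, was the second most abundant member. Its 7 tags had 671 and 2921 counts untreated and 1834 and 3897 on day 21, or 329.3 and 1194 against 1047 and 2777 CPM. The higher untreated library exceeded the lower day 21 library, so the groups overlapped. Replicate 2 was above replicate 1 by 3.63-fold untreated and 2.65-fold on day 21. The log2 change was 1.33 ± 0.63 (SE), 2.51-fold higher on day 21, and did not pass (edgeR unadjusted p = 0.0448, adjusted p = 0.823). Without untreated replicate 2 it was 2.57 and passed (adjusted p = 0.0453). Without day 21 replicate 2 it was 0.49 and without untreated replicate 1 it was 0.68, so its size turned on single libraries.

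Neutrophils also express Chil3. Summed neutrophil markers were at 10.8 and 160.7 CPM untreated and 75.9 and 282.2 CPM on day 21. Of 14 such markers 7 had counts, led by Camp (9.32 and 140.2 against 69.1 and 250.8 CPM) and S100a9 (0 and 30 counts against 9 and 27). Mmp8 was lower, with 3 and 2 counts untreated and 0 and 0 on day 21, and the groups of the others with counts overlapped. Mpo, Cxcr2 and Mmp9 are listed at 0. The part of neutrophils in the Chil3 values was not tested. Replicate 2 was above replicate 1 in both groups for 4 of the 6 tested members (Clec7a, Mrc1, Siglec1 and Chil3) and for 34.6% of all tested genes.

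Each tested tag of Chil3 had a positive log2 change, from 0.69 to 1.43, and none passed (edgeR adjusted p = 0.999 for each). The tag at the second to last site held 59.9% to 67.3% of the counts of a library. Of the counts at the last 2 sites, the last one took 29.5% and 32.1% untreated and 25.4% and 30.7% on day 21 (exact 95% intervals 25.8% to 33.4%, 30.3% to 33.9%, 23.2% to 27.6% and 29.2% to 32.2%). This share ran from 25.4% to 32.1% across libraries whose Chil3 level differed up to 8.43-fold. Another tag, at chr3:106147738-106147762, took 12.1% and 8.78% of Chil3 counts in replicate 1 of the untreated and day 21 groups but 1.85% and 0.693% in replicate 2. It is shown because the deposited annotation calls it Chil4, the near-identical neighbour of Chil3, although its bases match Chil3 in GRCm38. That reference is of the C57BL/6J strain and no BALB/c sequence was used here, so counts of Chil3 and of a Chil4 that differs by strain cannot be told apart for this tag. The base that differs is in capitals, and positions are counted from 1 after the CATG (A14C from the tag to Chil4, and G9A for a second tag in exon 7).
Chil3 tag of exon 11: catggagaataatagaaAtaagtca
Chil4 reference, exon 11: catggagaataatagaaCtaagtca
Chil3 tag of exon 7: catgatcctaagGatggctacactg
Chil4 reference, exon 7: catgatcctaagAatggctacactg
With every tag that matches a Chil3 transcript summed, whatever its deposited symbol, the log2 change was 1.29 (adjusted p = 0.852). Chi3l1, by contrast, is listed at 0 for its 3 tags in all 4 libraries, which allows up to 6.43 counts in a library, or 2.63 to 4.58 CPM. None of these tags is at the last site of the longest coding transcript, so the limit holds for the tags and not for that transcript. The tags in exons 3 and 10 are at the last site of other transcripts of the gene.

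**Figure D3:**
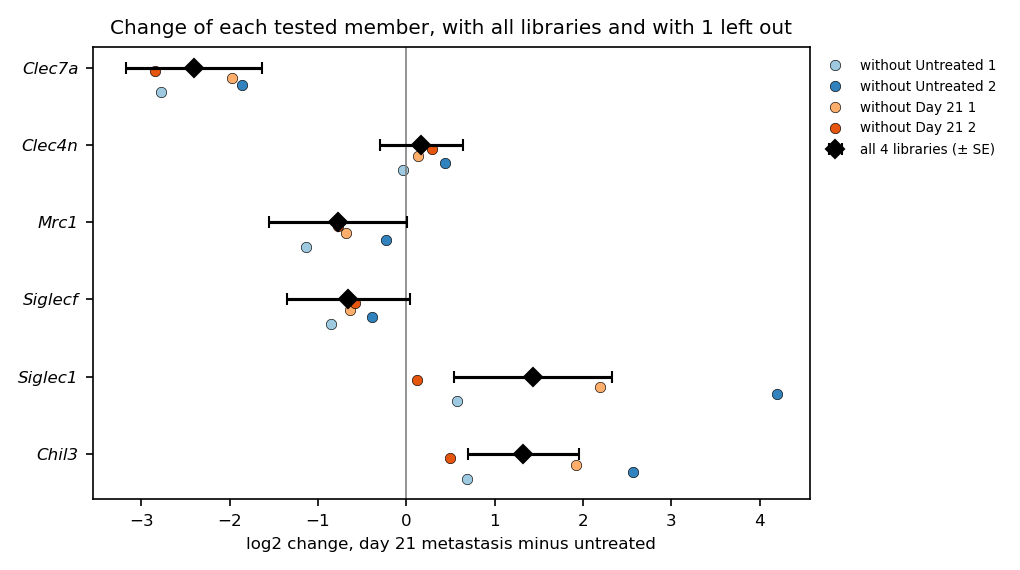
Log2 change, day 21 metastasis minus untreated (horizontal axis), of the 6 tested genes. Diamonds with bars are the values of all 4 libraries ± SE, and circles are the values with 1 library left out. Clec7a stays between -2.84 and -1.86, while Siglec1 ranges from 0.13 to 4.20 and Chil3 from 0.49 to 2.57.

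No gene of 5 lists of related genes passed the test. Of 38 other C-type lectins, 11 had counts and 6 were tested. The 6 gave 0 calls in edgeR or DESeq2 and a median log2 change of -0.12. At an unadjusted p under 0.05 in edgeR, 1 was higher and 1 lower on day 21, against 3.54% and 2.14% of all tested genes. The most abundant were Clec2d, whose main tag also matches Stk38, at 129.0 ± 36.3 CPM on day 21 and 165.1 ± 75.3 CPM untreated, and Cd302, at 68.8 ± 24.6 and 70.5 ± 59.4 CPM. Clec4a3, a member of the dectin-2 cluster, was at 50.5 ± 21.3 and 40.9 ± 26.0 CPM. Olr1, the oxidised LDL receptor LOX-1, had 32 and 22 counts untreated and 2 and 0 on day 21. Its log2 change was -4.17 ± 1.12 (SE; edgeR adjusted p = 0.0873). Clec4a1, named after its values were seen, went the other way, with 2 and 2 counts untreated and 13 and 26 on day 21 (log2 change 3.75 ± 0.997, adjusted p = 0.0852). Both had non-overlapping groups, as had 16% of all tested genes with day 21 below and 15.2% with day 21 above, and both missed the threshold.

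Among other sialic acid binding and related receptors, 4 of 10 were tested and 0 passed in edgeR or DESeq2, with 0 at an unadjusted p under 0.05 and a median log2 change of 0.52. Cd33, another Siglec, had 30 and 472 counts untreated and 325 and 564 on day 21, low in the same library as Siglec1 and Chil3. Its log2 change was 1.50 ± 0.78 (SE; adjusted p = 0.947). Selplg, the selectin ligand PSGL-1, was at 654.2 ± 456.3 CPM on day 21 and 782.5 ± 737.4 CPM untreated. Pilra, a paired receptor whose main tag also matches Pilrb1 and Pilrb2, had a log2 change of -1.04 ± 0.64, and Mag one of 1.29 ± 0.92. Of 8 other chitinases and chitinase-like genes, 2 were tested and 0 passed, with 0 at an unadjusted p under 0.05. Chid1 had a log2 change of 0.14 ± 0.78 and the gene deposited as Chi3l4 (Chil4) one of 0.28 ± 0.78, from 1 tag that matches Chil3 as well. Ctbs, the lysosomal chitobiase, had 2 to 7 counts in a library.

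Signalling genes downstream of C-type lectins gave no calls. Of 36, 12 were tested and 0 passed in edgeR or DESeq2, 0 had an unadjusted p under 0.05, and 8 had a log2 change below 0, as had 54.5% of all tested genes. Their median was -0.58. Tyrobp (DAP12), an adaptor chain of myeloid receptors, was the most abundant of those with counts, at 30300 ± 13050 CPM on day 21 and 19681 ± 7401 CPM untreated. No tag is listed for Fcer1g, another gene of this list, so it was not measured. Syk, the kinase that dectins engage, was at 138.7 ± 25.8 and 213.7 ± 79.5 CPM (log2 change -0.62 ± 0.61, adjusted p = 0.998). Lyn and Prkcd, kinases of the same pathway, had log2 changes of -0.53 ± 0.57 and -0.37 ± 0.62. The adaptor Card9 had 0 and 7 counts untreated and 6 and 3 on day 21.

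Genes of alternative activation, a state in which Chil3 and Mrc1 are often measured, gave no calls either. Of 16, 9 had a listed tag and 7 had counts. Arg1, Retnla, Ccl17, Ccl22, Ccl24, Clec10a and Pdcd1lg2 have no listed tag and were not measured, and Irf4 and Mgl2 are listed at 0. Of the 6 tested, 0 passed in edgeR or DESeq2, with 0 at an unadjusted p under 0.05 and a median log2 change of 0.09. Klf4 had a log2 change of -1.43 ± 0.79, Il4ra, the IL-4 receptor chain, one of 1.17 ± 0.78, Stat6, its transcription factor, one of 0.83 ± 0.78, and Tgm2 one of 0.20 ± 0.64 (SE; adjusted p = 0.952 to 0.998). Over the 17 tested alveolar macrophage markers, 12 had a log2 change below 0, as had 54.5% of all tested genes, with a median of -0.34. In edgeR or DESeq2 0 passed, and 3 lower and 1 higher had an unadjusted p under 0.05, against 2.14% lower and 3.54% higher of all tested genes. The 2 most abundant, Cd9 and Ear2 (whose main tag also matches Ear1), had log2 changes of -0.21 ± 0.54 and -0.13 ± 0.64.

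**Figure D4:**
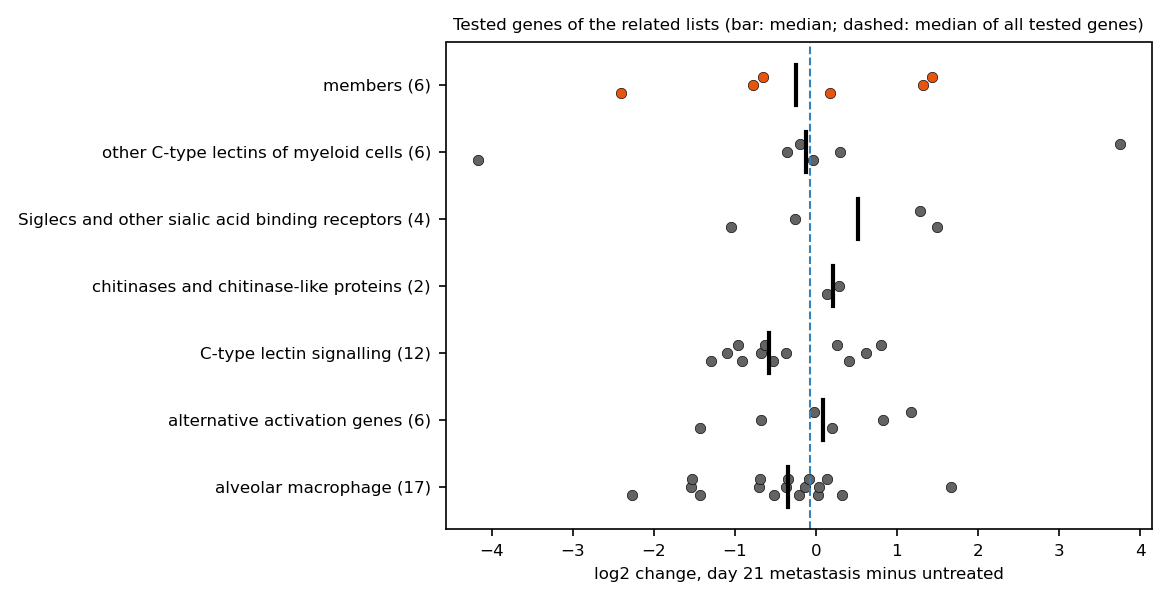
Log2 change, day 21 metastasis minus untreated (horizontal axis), of each tested gene of the 10 genes described here (members) and of 6 lists. Each point is a gene, numbers in brackets are genes tested, black bars are medians, and the dashed line is the median of all tested genes (-0.07). The medians lie between -0.58 and 0.52, and the 2 far points among other C-type lectins are Olr1 and Clec4a1.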

How the data were processed

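The authors deposited raw tag counts, each beside its 21-base tag, gene symbol, RefSeq accession and annotation, per the file headers. Per the submitters' processing notes the build was mm9. The aligner and any count filter: not given in the sources used here. Per the labels' protocols, cDNA was cut with NlaIII and tags were released with EcoP15I and amplified by PCR. Without molecular identifiers, intervals cover counting error only.

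Genes were named by RefSeq accession (29335 of 30627 tags), else by symbol. Tags were summed per gene. Each tag was searched after CATG in GENCODE M21 transcripts.

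Groups were compared with edgeR 4.0.16 (R 4.3.3) using TMM, filterByExpr (minimum count 10, minimum total 15), the quasi-likelihood test and Benjamini-Hochberg adjustment over 2993 genes or 3907 tags, with a threshold of 0.05. Group was the only term, with 2 residual degrees of freedom. DESeq2 1.42.0 was an alternative. SE was derived from the log2 change and the F statistic (change over root F). The test was tried on simulated counts.

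The members and lists were chosen with earlier results of these data known. The rule for named genes takes all members, the 4 genes with the most counts of each related list and the 2 of each cell type list, and those past the threshold. No gene was named for likeness of pattern, since 4 libraries are too few. Chi-square per degree of freedom between the libraries of a group was 59.4 untreated and 44.1 on day 21, so they were not repeat deposits of 1 library, and each was counted as 1 sample.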

Additional observations from a re-analysis of the deposited data

How the results depend on the processing

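The median log2 change of all tested genes was -0.07 in the values reported and shifted to -0.29 under scaling by total counts alone. The gene Ctsd took 24.9% and 22.4% of all tags in untreated replicates 1 and 2 and 36.4% and 35.5% on day 21. Its part in this shift was not tested. Over all genes, 20 were higher and 2 lower on day 21. The numbers higher and lower were 9 and 0 with total counts alone, 36 and 5 without a filter on low counts, 11 and 0 with tags that match a single gene, and 9 and 0 with the main tag of each gene. The number lower was 0 with upper-quartile scaling and 4 with DESeq2. With 1 library left out, 0 to 63 genes were higher and 0 to 18 lower, where the lone library of a group is assumed to vary like the other group. Of the members, 0 passed with all libraries and no block, and 0 to 2 with 1 library left out. Over all tags, 14 were higher and 0 lower. These were 30 and 4 without a filter, and 16 to 71 and 1 to 25 with 1 library left out, with 0 member tags past the threshold in each.

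The change of Clec4n was -0.058 with total counts alone, that of its last-site tag was -0.060, and the former ran from -0.034 to 0.44 with 1 library left out. With 1 library left out, its tags in the coding sequence ran from -1.27 to 1.601 (exon 6) and from -0.27 to 1.69 (exon 2). For Chil3 the tag that the annotation calls Chil4 ran from -0.73 to 1.59. The exon 7 tag printed above ran from 0.32 to 1.59, and another exon 7 tag, which matches Chil4 as well, from -0.19 to 3.62. The other 5 tested members kept their direction in all 14 alternatives.

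With the replicate number as a block (replicate block), 31 genes were higher and 9 lower, and 1 member passed, Clec7a (log2 change -2.38, adjusted p = 0.0475). The deviations of same-numbered libraries from their group means had a Pearson's r of 0.54 across 2993 genes, which are not independent replicates. With only 2 numbers and no label that ties them to mice or days, the libraries share only a number. The causes of these differences were not tested.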

Other observations

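Besides the tags deposited as Chi3l3, 3 tags deposited as Gm6522 and the 1 deposited as Chi3l4 match Chil3 transcripts. The tags that match Chil3, Chil4 and Gm6522 alike, 2 in number, had 76 and 253 counts in untreated replicates 1 and 2 and 246 and 170 on day 21. The 4 tags that match Chil3 and Chil4 had 26 and 133 counts untreated and 90 and 79 on day 21. None of the listed tags that match Chil4 matches it alone, so the counts hold no separate measure of Chil4.

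Other C-type lectins too low to be tested, chosen after their values were seen, were Clec5a, an activating receptor that pairs with Tyrobp, with 0 and 0 counts untreated and 9 and 6 on day 21, and Cd93 with 0 and 2 against 8 and 5. Siglece, an inhibitory Siglec, had 8 and 5 counts untreated and 0 and 2 on day 21. Nlrp3, the inflammasome sensor, had 3 and 12 counts untreated and 0 and 0 on day 21.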
